A study of Homo sapiens with 16 samples.

Results

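CYR61, CTGF, ANKRD1, NUAK2, AXL, F3, CRIM1, PTPN14, ARHGEF17 and GADD45A are genes widely used to read out the transcriptional activity of YAP. They were taken by symbol from the deposited count table, in which all 10 were listed among 26229 genes, and their levels were followed over 16 libraries with loss or gain of YAP. All 10 had a mean above 10 counts per library and were tested, with 14673 genes tested in all.

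RNA was sequenced from 2 human lines, A431, an epidermoid carcinoma line with a high EGFR level, and HaCAT, an immortalised keratinocyte line, both grown in DMEM with foetal calf serum. For each line a control siRNA (siCTRL) was represented by 1 library, a pool of siRNAs against YAP1 (siYAP) by 3, transfection with an empty vector by 1, and transfection with a constitutively active YAP1 mutant by 3 (YAP5SA in the titles, S5A in the vector label). The siRNAs were given in 2 rounds 24 h apart and RNA was taken 48 h after the second round. Each comparison with a control therefore rested on a single control library, whose own spread between cultures was not measured, and p values measure the spread within the 4 treated triplicates.

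YAP and its paralogue TAZ are co-activators without a DNA-binding domain of their own. The Hippo kinases LATS1 and LATS2 phosphorylate them on serines, which keeps them in the cytoplasm, and mutation of these serines leaves YAP in the nucleus, where it binds TEAD transcription factors, often beside AP-1, and switches on genes for secreted matrix proteins, surface receptors, cytoskeletal regulators and inhibitors of YAP itself. In the epidermis, nuclear YAP is known from basal layer cells.

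TEAD proteins bind the core GGAATG and AP-1 factors bind TGANTCA, so both were looked for on either strand (CATTCC is GGAATG on the other strand) in the promoter windows that RefSeq gives on GRCh38.p14, 250 bases before to 50 after a transcript start. Windows were matched for 6 of the 10 genes: CTGF (listed as CCN2), ANKRD1, NUAK2, AXL, F3 and PTPN14. The 250 bases before the start are printed, 5′ to 3′ and with the matches in capitals, for 4 genes to which the results return: CTGF and ANKRD1, which had the highest fold changes with YAP5SA, F3, which rose in HaCAT cells without a TEAD core in its window, and NUAK2, which has 2 cores and did not pass edgeR's test against a control in either line.
CTGF, chr6:131951373-131951622, minus strand: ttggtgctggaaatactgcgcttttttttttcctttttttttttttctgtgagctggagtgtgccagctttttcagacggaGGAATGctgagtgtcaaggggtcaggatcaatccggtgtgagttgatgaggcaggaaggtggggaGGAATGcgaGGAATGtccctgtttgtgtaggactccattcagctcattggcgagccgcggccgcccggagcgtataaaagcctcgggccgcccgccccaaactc
ANKRD1, chr10:90921088-90921337, minus strand: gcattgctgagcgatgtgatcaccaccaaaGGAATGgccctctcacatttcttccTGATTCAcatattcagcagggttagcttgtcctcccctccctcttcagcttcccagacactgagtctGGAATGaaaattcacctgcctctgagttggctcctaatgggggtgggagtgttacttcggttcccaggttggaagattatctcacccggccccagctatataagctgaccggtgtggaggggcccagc
F3, chr1:94541760-94542009, minus strand: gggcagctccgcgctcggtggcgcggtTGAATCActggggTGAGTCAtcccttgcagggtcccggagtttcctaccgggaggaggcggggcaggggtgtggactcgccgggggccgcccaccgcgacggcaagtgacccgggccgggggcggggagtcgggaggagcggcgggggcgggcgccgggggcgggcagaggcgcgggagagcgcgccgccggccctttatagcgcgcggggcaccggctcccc
NUAK2, chr1:205321746-205321995, minus strand: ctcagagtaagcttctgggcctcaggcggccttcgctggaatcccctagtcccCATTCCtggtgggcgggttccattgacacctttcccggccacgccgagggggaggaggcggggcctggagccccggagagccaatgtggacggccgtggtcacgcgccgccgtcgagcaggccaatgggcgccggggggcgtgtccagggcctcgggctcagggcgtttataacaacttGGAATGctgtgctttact

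Of 35116 such windows in RefSeq, 14.0% held a GGAATG, 1.37% held 2 or more and 0.13% held 3 or more, and 7.71% held a TGANTCA and 0.52% 2 or more. Positions are counted back from the transcript start, the base just before it being -1. CTGF had 3 TEAD cores, at -169, -104 and -95. ANKRD1 had cores at -220 and -128 with an AP-1 match between them at -195. In F3 there were 2 AP-1 matches, at -223 and -210, and no core. NUAK2 had cores at -197 and -18, PTPN14 had 1 at -200, and AXL had none in 1 of its windows and 1 at -212 in the other. These matches describe the printed letters and no binding was measured.

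Library totals over the genes were 18.1 to 46.8 M read pairs, and levels are given as TMM-scaled counts per M (CPM), on which 3 counts, the most that a count of 0 allows, came to 0.063 to 0.164. That limit covers counting error only. YAP1, the targeted gene, lay at 94.3 CPM in A431 siCTRL and at 5.34, 7.00 and 5.04 with siYAP, and at 124 with the empty vector and 1495, 3245 and 2940 with YAP5SA, where vector and endogenous transcripts cannot be told apart. HaCAT YAP1 lay at 254 and then 23.2, 21.6 and 21.8, and at 423 and then 7549, 22255 and 10069. All 12 treated libraries were thus on the labelled side of their control. The 6 keratinocyte markers (KRT5, KRT14, TP63, DSG3, CDH1, ITGB4) were above 1 CPM in both lines, and EGFR lay at 750.0 to 1358 CPM in A431 and 298 to 557 in HaCAT libraries. PTPRC, a leukocyte marker, reached 0.255 CPM at most.

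Loss of YAP left the 10 genes without a call in either line. In A431 cells 0 of 10 passed edgeR's quasi-likelihood test (FDR under 0.05 and logCPM above 1), against 5.60% of all genes tested, 3.78% lower. In HaCAT cells 0 of 10 passed, against 5.67%, 3.30% lower. NUAK2 and F3 had an unadjusted p under 0.05 in A431 cells, as did 3264 of the 14673 genes tested. In HaCAT cells NUAK2 and PTPN14 did, as did 2997 of the 14673. DESeq2 called 1 of the 10, NUAK2, which was higher, in A431 cells, beside 1397 of all genes. It called none of the 10 in HaCAT cells, beside 1344 of all genes. The median log2 fold change of the 10 genes was 0.24 in A431 and 0.06 in HaCAT cells, beside 0.03 for all genes in both. All 3 siYAP libraries lay below siCTRL for 4 of 10 genes in each line, and all 3 lay above it for 2 genes in A431 and 5 in HaCAT cells. The shares of all genes that did so are not given, so these counts are a description. In each line 52.5% of all genes had a log2 fold change above 0. With the siCTRL and empty vector libraries of a line taken as 2 controls, 5 of 10 were called in HaCAT cells. CYR61, ANKRD1 and GADD45A were lower and NUAK2 and PTPN14 higher. This setting brings a vector library into an siRNA comparison, and the share of all genes called with it is not given here. The vector lay above siCTRL for the genes called lower and below it for those called higher. GADD45A, called lower, was at 13.6 to 16.7 CPM with siYAP, 11.3 in siCTRL and 67.2 in the vector. In bulk RNA, fewer cells expressing a gene and less of its RNA per cell cannot be told apart.

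Gain of YAP raised most of the 10 genes in HaCAT cells. There 7 of 10 passed the test, all higher, against 13.6% of all genes tested, 6.99% higher, and the median log2 fold change was 1.20 beside 0.01 for all genes. The 7 were ANKRD1, CTGF, CYR61, AXL, F3, ARHGEF17 and CRIM1. NUAK2, PTPN14 and GADD45A did not pass. All 3 YAP5SA libraries lay above the single empty vector library for all 10 genes. The share of all genes that did so is not given, and 50.8% of all genes had a log2 fold change above 0. Taking both controls of the line together, CRIM1 (0.41, edgeR FDR = 0.125) and ARHGEF17 (0.20, edgeR FDR = 0.738) were no longer called. In A431 cells 0 of 10 passed, and so did 0% of all genes, YAP1 included (edgeR FDR = 0.197), although 828 genes and 3 of the 10 (ANKRD1, CYR61 and F3) had an unadjusted p under 0.05. DESeq2 called 3 genes in that comparison and none of the 10. In A431 cells 7 of the 10 genes lay above the empty vector in all 3 YAP5SA libraries. The share of all genes that did so is not given, and 52.9% of all genes had a log2 fold change above 0. The count describes the libraries against a single vector library. The median log2 fold change of the 10 genes was 0.32 as fitted, beside 0.02 for all genes. It was 0.21 with CTGF, which had 0 counts in the vector, set at a lower bound. That bound was a ratio of 0.694, from its 8 YAP5SA counts against 3 in the vector, the most that a count of 0 allows. ANKRD1, with 1 count in the vector, kept its fitted value.

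**Figure D1:**
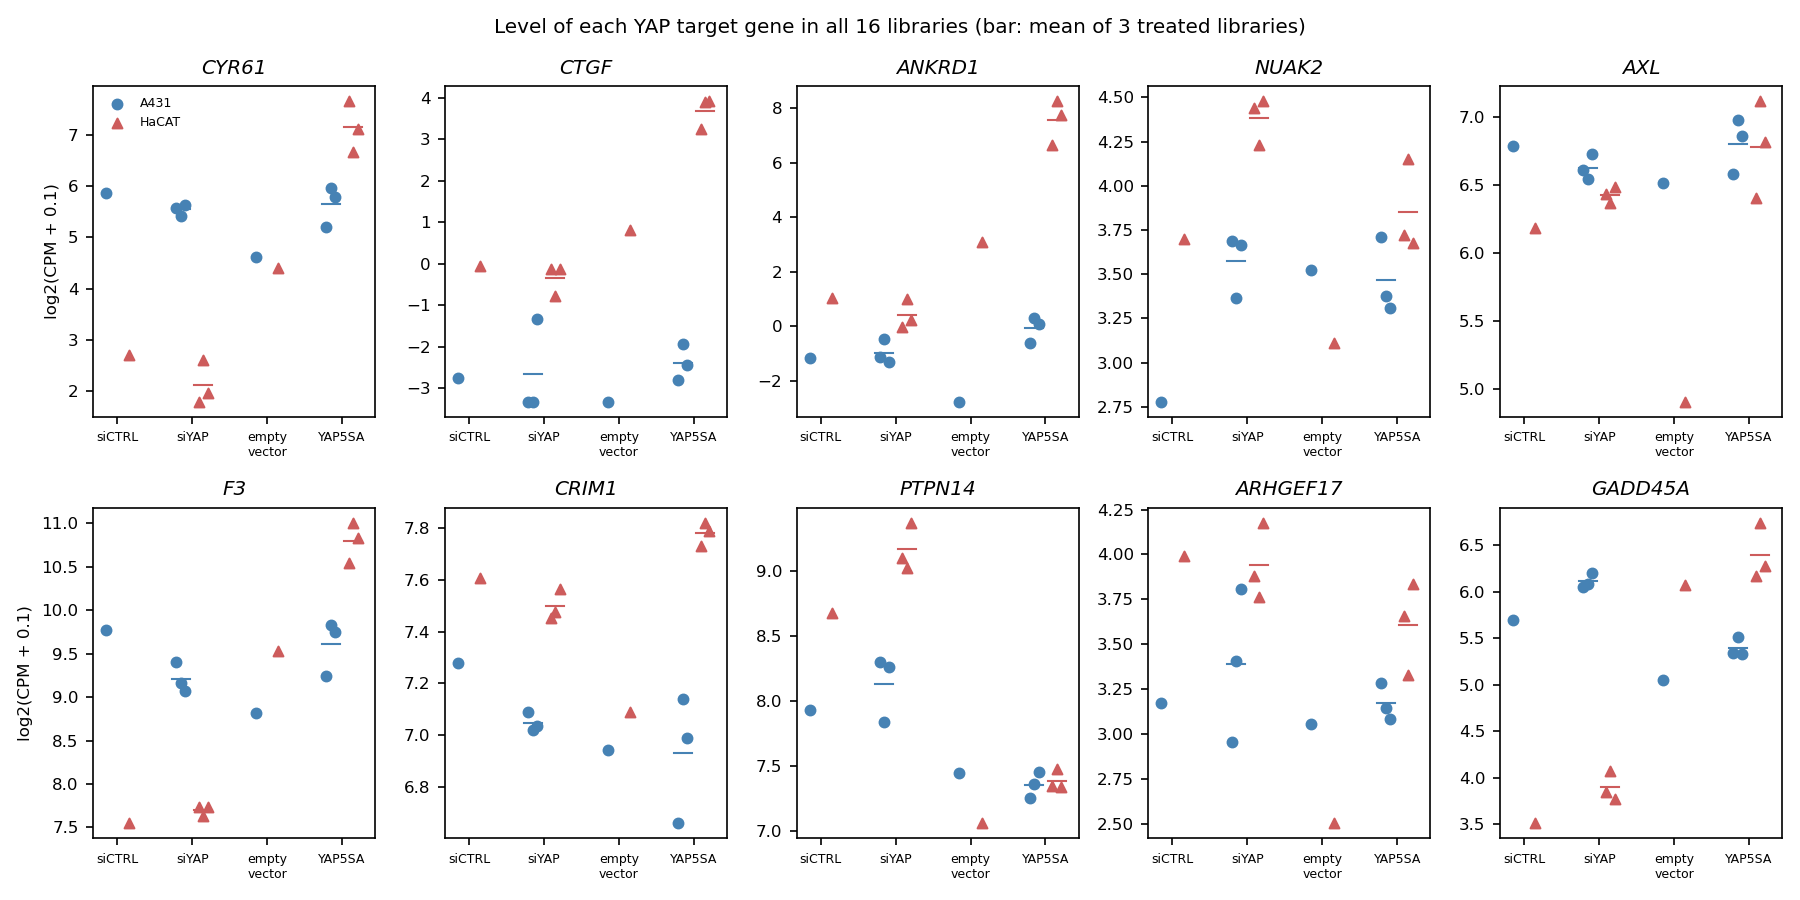
Level of each of the 10 genes in every library, as log2(CPM + 0.1), with siCTRL, siYAP, empty vector and YAP5SA along the horizontal axis, blue circles for A431 and red triangles for HaCAT cells, and bars for the mean of 3 libraries. The red triangles of CYR61, CTGF, ANKRD1 and F3 stand highest with YAP5SA, and the vertical scale differs between genes.

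CYR61 and CTGF encode secreted CCN proteins that bind integrins and heparan sulphate and act on adhesion, proliferation and matrix production. CYR61 lay at 6.45 CPM in HaCAT siCTRL and at 3.37, 5.98 and 3.83 with siYAP. With the empty vector it lay at 21.1, and with YAP5SA at 202, 102 and 139. The siYAP libraries were all below their control, closely so in replicate 2, whereas every YAP5SA library was far above the empty vector. The siYAP difference did not pass the test (log2 fold change -0.57, 95% interval -1.47 to 0.33), and CYR61 rose 7.00-fold with YAP5SA (log2 fold change 2.81, SE 0.42, edgeR FDR = 0.00331).

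In A431 cells CYR61 lay at 58.4 CPM with siCTRL and at 47.4, 42.9 and 49.8 with siYAP, all below the control. It lay at 24.3 with the empty vector and at 36.5, 62.4 and 55.0 with YAP5SA, all above the vector, and these overlapped the siYAP libraries. Neither difference passed (log2 fold change -0.32, 95% interval -1.07 to 0.43 for siYAP; 1.08, 0.25 to 1.90, edgeR FDR = 0.803 for YAP5SA). The siYAP interval takes in both no change and a fall by more than 1 on the log2 scale, so a change was not detectable, which does not show that there was none.

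CTGF was close to the counting floor in A431 cells. It had 1 count in siCTRL, 0, 0 and 6 in siYAP, 0 in the empty vector and 1, 4 and 3 in YAP5SA. No difference was detectable at that depth, the ratio of siYAP to siCTRL being 1.27 with a 95% counting interval of 0.154 to 58.3. HaCAT cells held more of it, 0.874 CPM in siCTRL and 0.813, 0.486 and 0.826 in siYAP. The empty vector was at 1.66 and YAP5SA at 9.38, 14.9 and 15.1. All YAP5SA libraries stood clear of every other library, and CTGF rose 7.90-fold over the empty vector (log2 fold change 2.98, SE 0.80, edgeR FDR = 0.0283). Without HaCAT YAP5SA replicate 3 that call was lost (2.87, edgeR FDR = 0.0674). With siYAP the log2 fold change was -0.28, with a wide interval of -2.11 to 1.55.

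ANKRD1 encodes a muscle ankyrin repeat protein that shuttles between sarcomere or cytoplasm and nucleus. It had the highest fold change of the 10 genes in HaCAT cells. It lay at 1.97 CPM in siCTRL, at 0.891, 1.90 and 1.06 in siYAP, at 8.50 in the empty vector and at 100.5, 309 and 217 in YAP5SA. Even the lowest YAP5SA library was far above the vector, and the triplicates did not overlap. ANKRD1 rose 24.5-fold with YAP5SA (log2 fold change 4.62, SE 0.61, edgeR FDR = 0.00183), and the siYAP libraries, all below siCTRL, did not pass (-0.66, 95% interval -2.16 to 0.84).

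In A431 cells ANKRD1 was counted 7 times in siCTRL, 17, 18 and 6 times in siYAP, 1 time in the empty vector and 13, 28 and 34 times in YAP5SA. The 75 counts over the YAP5SA triplicate against 1 in the vector gave a ratio of 19.5, with a 95% counting interval of 3.40 to 781 that takes in the HaCAT value. As CPM, YAP5SA (0.56, 1.14 and 0.945) overlapped siYAP (0.357, 0.621 and 0.300).

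AXL, F3 and CRIM1 act at the cell surface. AXL is a receptor tyrosine kinase activated by GAS6. In HaCAT cells it lay at 72.7 CPM in siCTRL, at 86.4, 82.3 and 89.4 in siYAP, at 29.8 in the empty vector and at 84.5, 139 and 113 in YAP5SA. AXL rose 3.76-fold with YAP5SA against the vector (log2 fold change 1.91, SE 0.25, edgeR FDR = 0.00178), and the lowest YAP5SA library lay among the siYAP libraries. A431 cells held AXL at 110.3 in siCTRL, 97.7, 93.3 and 106 in siYAP, 91.3 in the empty vector and 95.7, 126 and 116 in YAP5SA. The siYAP libraries were all below and the YAP5SA libraries all above their controls, by log2 fold changes of -0.15 (SE 0.22) and 0.30 (SE 0.22) that did not pass.

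F3 encodes tissue factor, the receptor of factor VII that starts coagulation. In HaCAT cells it lay at 187 CPM in siCTRL, at 213, 198 and 213 in siYAP, at 739 in the empty vector and at 1491, 2062 and 1826 in YAP5SA. It rose 2.42-fold over the empty vector (log2 fold change 1.28, SE 0.24, edgeR FDR = 0.00816), with no overlap between the YAP5SA libraries and any other. F3 was the gene nearest to a response to both loss and gain in A431 cells. There it lay at 877 in siCTRL and at 677, 573 and 538 in siYAP (log2 fold change -0.56, SE 0.22, edgeR FDR = 0.154), and at 451 in the empty vector and at 604, 908 and 864 in YAP5SA (0.81, SE 0.24, edgeR FDR = 0.803). All siYAP libraries were below siCTRL and all YAP5SA libraries above the vector, and neither difference passed. Without A431 YAP5SA replicate 1, F3 was called (0.98, SE 0.19, edgeR FDR = 0.0473). That library had the lowest YAP1 level of its triplicate and also stood apart from the others over all genes. The share of all genes called without it is not given, and what brought the call was not tested.

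CRIM1 is a transmembrane protein that binds BMPs. In HaCAT cells it lay at 195 CPM in siCTRL, 175, 178 and 189 in siYAP, 136 in the empty vector and 212, 226 and 221 in YAP5SA. The rise with YAP5SA was small, 1.62-fold (log2 fold change 0.70, SE 0.16, edgeR FDR = 0.0155), and tight, the triplicate mean being 219.9 ± 7.19 (SD, n = 3). In A431 cells CRIM1 lay at 155 in siCTRL, at 136, 129.8 and 131 in siYAP, at 123 in the empty vector and at 101, 141 and 127 in YAP5SA, which lay on both sides of the vector.

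NUAK2, PTPN14, ARHGEF17 and GADD45A act inside the cell. NUAK2, an AMPK-related kinase that acts on actomyosin and feeds back on LATS, lay higher with siYAP in both lines. In A431 cells it lay at 6.76 CPM in siCTRL and at 12.8, 10.2 and 12.6 in siYAP (log2 fold change 0.81, SE 0.26, edgeR FDR = 0.0917), and in DESeq2 this difference passed (0.81, FDR = 0.0484). The empty vector was at 11.4 and YAP5SA at 13.0, 10.3 and 9.82, on both sides of it. HaCAT cells had 12.9 in siCTRL and 21.6, 18.7 and 22.2 in siYAP (0.69, SE 0.25, edgeR FDR = 0.136), then 8.53 in the empty vector and 13.1, 17.7 and 12.7 in YAP5SA (0.76, SE 0.25, edgeR FDR = 0.0607). NUAK2 in HaCAT cells thus lay above its control in all 6 treated libraries, whether YAP was lost or gained. The YAP5SA difference passed in DESeq2 (FDR = 0.0318), in the likelihood ratio test (edgeR FDR = 0.0376) and without replicate 1 (edgeR FDR = 0.0419). DESeq2 called 2735 of all genes in that comparison, and the share of all genes called in the other settings is not given.

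PTPN14 is a phosphatase that binds YAP and holds it out of the nucleus. In HaCAT cells it lay at 408 CPM in siCTRL, at 549, 520.4 and 662 in siYAP (log2 fold change 0.50, SE 0.19, edgeR FDR = 0.153), at 133 in the empty vector and at 162, 178 and 161 in YAP5SA (0.33, SE 0.19, edgeR FDR = 0.250). The siYAP libraries were all above siCTRL, and every library of the siRNA arm was above every library of the vector arm. In A431 cells the values were 243 in siCTRL, 315, 228 and 307 in siYAP, 174 in the empty vector and 152, 164 and 175 in YAP5SA, with neither triplicate clear of its control.

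ARHGEF17 in HaCAT cells lay at 15.8 CPM in siCTRL, 14.6, 13.5 and 18.0 in siYAP, 5.57 in the empty vector and 12.5, 9.96 and 14.2 in YAP5SA. It rose 2.19-fold over the empty vector (log2 fold change 1.13, SE 0.32, edgeR FDR = 0.0356), although no YAP5SA library reached the highest of the siRNA arm. That call was lost without YAP5SA replicate 3 (1.01, edgeR FDR = 0.0781) and with HaCAT libraries fitted alone (1.14, edgeR FDR = 0.0534). In A431 cells it lay at 8.91 in siCTRL, 7.67, 10.5 and 13.9 in siYAP, 8.22 in the empty vector and 9.64, 8.75 and 8.37 in YAP5SA, with no call.

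GADD45A, a stress-induced protein of growth arrest and DNA repair, lay above its control in all 12 treated libraries without passing in any comparison with a control. In A431 cells it lay at 51.7 CPM in siCTRL, 66.3, 67.9 and 73.7 in siYAP (log2 fold change 0.42, SE 0.20), 33.1 in the empty vector and 40.5, 45.4 and 40.0 in YAP5SA (0.34, SE 0.20). HaCAT values were 11.3 in siCTRL, 14.3, 16.7 and 13.6 in siYAP (0.39, SE 0.22), 67.2 in the empty vector and 71.8, 107 and 77.5 in YAP5SA (0.34, SE 0.20). Loss and gain of YAP gave fold changes of like sign and size, and in HaCAT cells the control libraries were further apart than either treatment moved the gene.

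**Figure D2:**
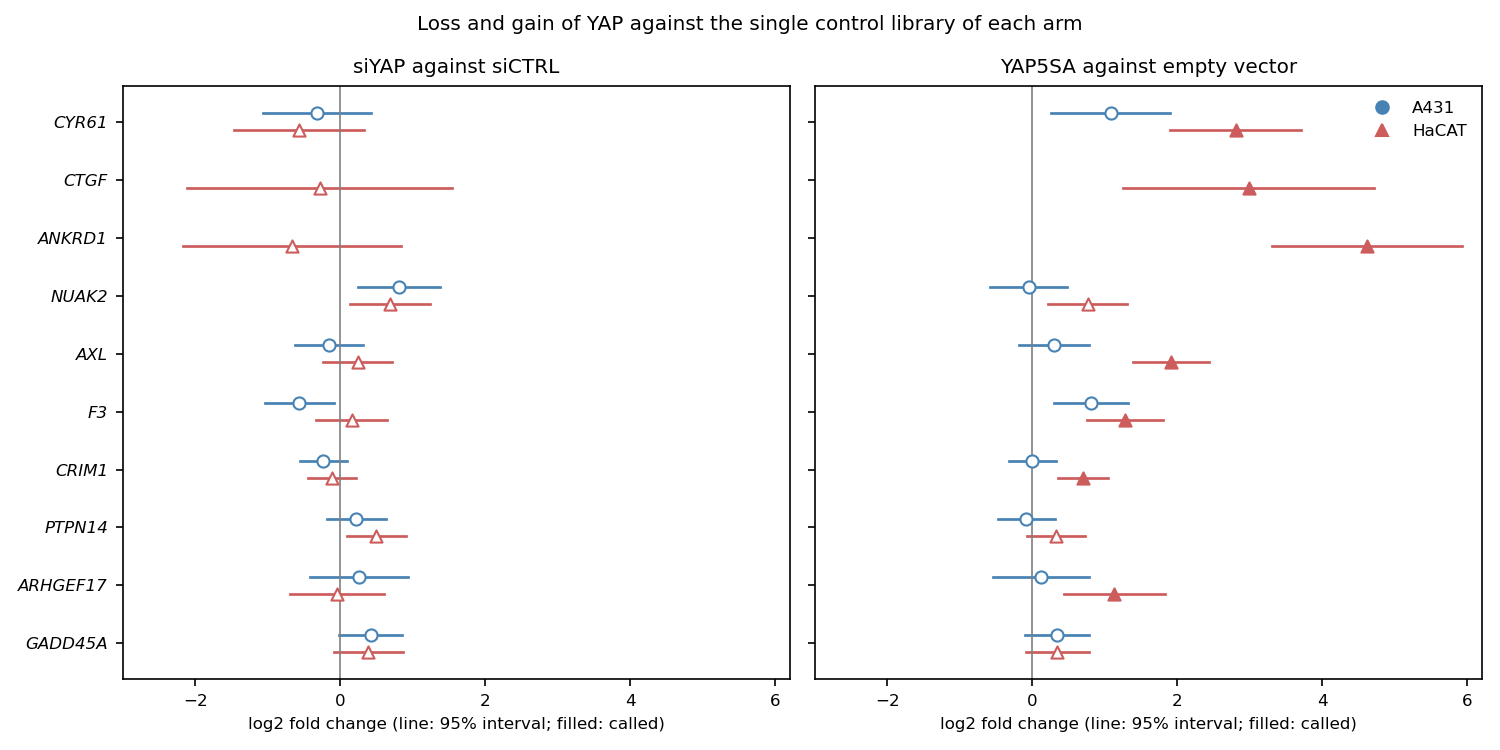
Log2 fold change of each gene with siYAP against siCTRL (left) and with YAP5SA against the empty vector (right), with 95% intervals, blue circles for A431 and red triangles for HaCAT cells, filled where the test was passed. All 7 filled symbols are HaCAT triangles on the right, from CRIM1 at 0.70 to ANKRD1 at 4.62, and no value is drawn for CTGF and ANKRD1 in A431 cells.

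The 2 control libraries of a line differed, and in HaCAT cells by more than many treatment effects. Of the 8 genes above 2 CPM in both controls, 6 were over 2-fold apart between siCTRL and the empty vector in HaCAT cells, and 1 of 8 in A431 cells, where 30.0% of 10939 and 5.10% of 11526 genes were. In HaCAT cells the empty vector was 5.95-fold above siCTRL for GADD45A, 3.96-fold for F3 and 3.27-fold for CYR61, and siCTRL was 3.07-fold above the vector for PTPN14, 2.84-fold for ARHGEF17 and 2.44-fold for AXL. In A431 cells CYR61 was 2.40-fold and F3 1.95-fold above the vector in siCTRL. With 1 library each, the siRNA and vector procedures, the cultures and the libraries cannot be told apart.

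Markers moved with the same division. The summed level of the 6 keratinocyte markers was 1803 CPM in HaCAT siCTRL, 2375 to 2907 in siYAP, 5426 in the empty vector and 3005 to 5365 in YAP5SA, and in A431 cells 2071, 2384 to 2905, 3757 and 3137 to 3386. The 6 fibroblast markers were COL1A1, COL1A2, PDGFRA, PDGFRB, DCN and LUM. They summed to 21.5 to 27.9 CPM in the HaCAT siRNA arm and 0.605 to 1.90 in the vector arm. In A431 cells the sums were 10.1 to 14.5 and 2.45 to 5.42. PDGFRA, PDGFRB and COL1A2 were near 0 in both lines. Most of the siRNA arm sums came from DCN (11.3 to 14.2) and LUM (6.16 to 9.29) in HaCAT cells and from LUM (8.99 to 12.7) in A431 cells. The 3 endothelial markers summed to 52.1 in HaCAT siCTRL, 12.3 to 14.0 in siYAP, 0.127 in the empty vector and 0.517 to 1.13 in YAP5SA, and in A431 cells to 32.5, 17.4 to 20.3, 3.58 and 1.95 to 2.97. CDH5 alone was at 51.8 in HaCAT siCTRL and at 31.1 in A431 siCTRL, and in the A431 vector arm at 2.43 in the empty vector and 1.12 to 1.35 in YAP5SA. Their part in the results was not tested.

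YAP5SA set directly against siYAP, the comparison with 3 libraries on each side, therefore holds both the effect of YAP and the difference between the arms. In HaCAT cells 9 of 10 genes passed, against 60.0% of all genes tested. Higher with YAP5SA were 7 (against 31.5%): ANKRD1 (log2 fold change 7.38), CYR61 (5.09), CTGF (4.18), F3 (3.11), GADD45A (2.52), AXL (0.38) and CRIM1 (0.28). Lower were 2 (against 28.5%), PTPN14 (-1.79) and NUAK2 (-0.53). In A431 cells 2 of 10 passed, against 34.6%, and both were lower (against 14.6%, with 20.0% higher): PTPN14 (-0.79, SE 0.13, edgeR FDR = 5.33e-04) and GADD45A (-0.72, SE 0.14, edgeR FDR = 0.00162). The median over the 10 genes was 1.45 in HaCAT and 0.01 in A431 cells, beside -0.06 and -0.03 over all genes.

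With each arm first set against its own control, 5 genes passed in HaCAT cells, all of them among the 9, against 9.00% of all genes (4.65% higher): ANKRD1 (5.27, SE 0.91, edgeR FDR = 0.00502), CYR61 (3.38, SE 0.57, edgeR FDR = 0.00437), AXL (1.67, SE 0.31, edgeR FDR = 0.00777), F3 (1.12, SE 0.32, edgeR FDR = 0.0448) and CRIM1 (0.81, SE 0.22, edgeR FDR = 0.0356). CTGF went from 4.18 to 3.26 and did not pass (SE 1.13, edgeR FDR = 0.0851). The value of GADD45A changed from 2.52 to -0.05 and that of PTPN14 from -1.79 to -0.17, and both genes were over 2-fold apart between the controls in the direction of the direct comparison. AXL went the other way, from 0.38 to 1.67. In A431 cells 0 of 10 genes passed, against 1.53% of all genes, with PTPN14 at -0.31 (SE 0.26) and GADD45A at -0.08 (SE 0.28). F3 came closest there (1.37, SE 0.32, edgeR FDR = 0.0529).

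**Figure D3:**
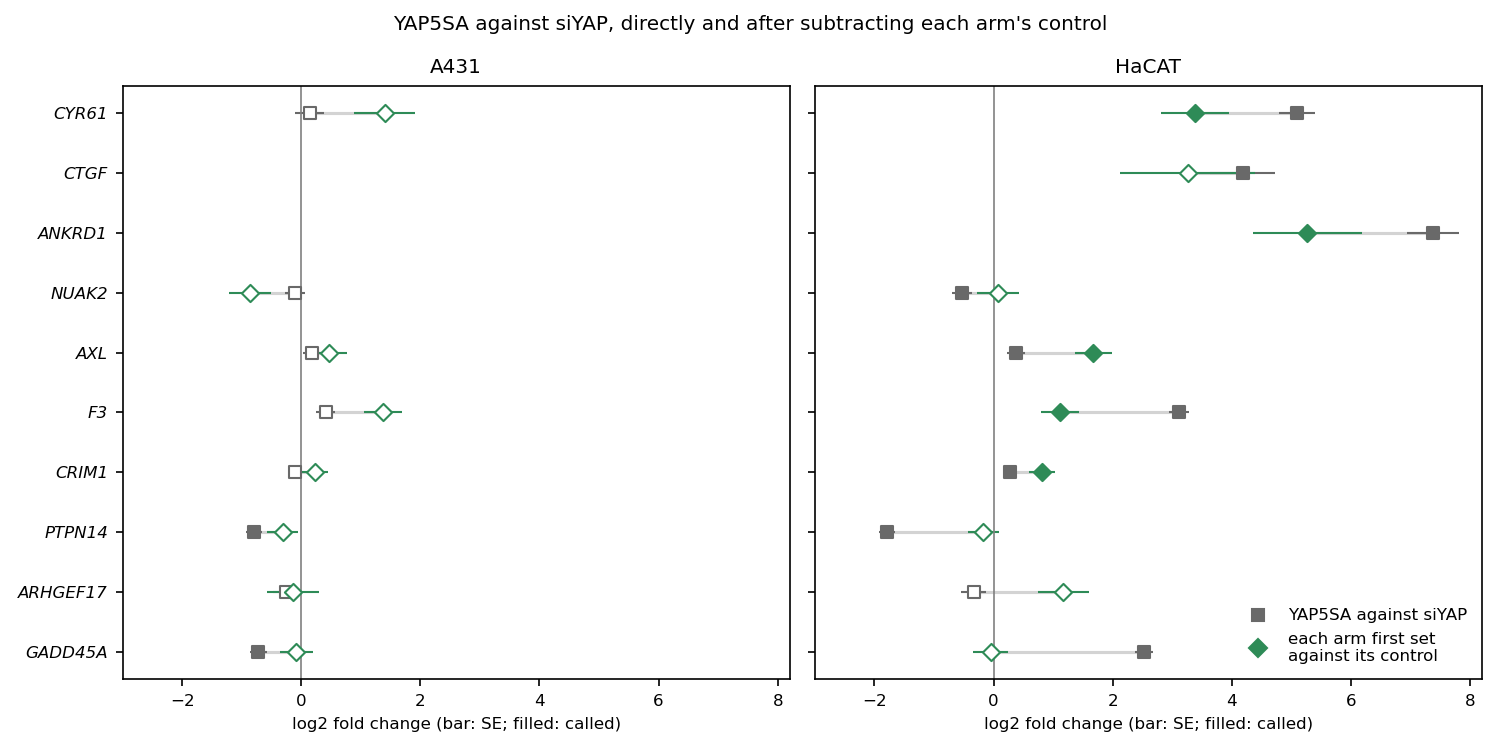
Log2 fold change of YAP5SA against siYAP in A431 (left) and HaCAT cells (right), compared directly (grey squares) and after each arm was set against its own control (green diamonds), with bars for the SE and filled symbols where the test was passed. In HaCAT cells the symbols for GADD45A lie at 2.52 and -0.05 and those for AXL at 0.38 and 1.67.

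Whether the lines differed was tested with an interaction term. For siYAP 0 of 10 genes passed, against 0.170% of all genes, with 1 (F3) at an unadjusted p under 0.05 and 0 in DESeq2. Of the 14673 genes tested, 1690 had such a p for siYAP, and DESeq2 called 280 of all genes. For YAP5SA 0 of 10 passed, against 0.0886% of all genes, with 5 at an unadjusted p under 0.05 and 3 called in DESeq2 (AXL, CYR61 and CRIM1). Here 3280 of the 14673 had such a p, and DESeq2 called 928 of all genes. AXL was nearest, its log2 fold change being higher in HaCAT cells by 1.61 (SE 0.31, edgeR FDR = 0.0533), followed by CYR61 at 1.73 (SE 0.51, edgeR FDR = 0.0938) and CRIM1 at 0.70 (SE 0.22, edgeR FDR = 0.103). The count of 7 genes in HaCAT against 0 in A431 cells is thus not by itself a shown difference between the lines. CTGF and ANKRD1, the genes with the highest fold changes in HaCAT cells, had too few A431 counts for this test to bear on them. For F3 the difference was 0.47 (95% interval -0.22 to 1.15), and for GADD45A it was 0.00 (-0.62 to 0.62).

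The 12 other genes of the published 22-gene YAP and TAZ signature that holds these 10 (MYOF, AMOTL2, LATS2, ASAP1, IGFBP3, FJX1, FOXF2, CCDC80, NT5E, DOCK5, TGFB2, RBMS3) included genes that passed with loss of YAP. In HaCAT cells siYAP lowered 3 of 12, against 3.30% of all genes tested: FJX1, a secreted protein (-1.58, SE 0.40, edgeR FDR = 0.0354), the cytokine TGFB2 (-1.39, SE 0.21, edgeR FDR = 0.00239) and AMOTL2, an angiomotin that binds YAP (-1.03, SE 0.18, edgeR FDR = 0.00561). With YAP5SA 8 of 12 passed in HaCAT cells, against 13.6% of all genes tested, and 7 of them were higher, against 6.99%, RBMS3 on a vector library with 3 counts. TGFB2 (2.06, SE 0.24, edgeR FDR = 0.00102) and AMOTL2 (1.29) were thus called in opposite directions with loss and gain, which none of the 10 genes was. CCDC80, a matrix protein, fell (-1.93, SE 0.38, edgeR FDR = 0.00894). Over all 22 genes 15 passed with YAP5SA in HaCAT cells, 14 higher and 1 lower, beside the same 13.6% and 6.99% of all genes.

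TGFB2 lay at 15.8 CPM in HaCAT siCTRL, 4.80, 7.19 and 6.18 in siYAP, 6.56 in the empty vector and 26.2, 24.6 and 31.5 in YAP5SA. AMOTL2 lay at 155, then 77.4, 70.8 and 78.8, then 89.5, and then 210.2, 207 and 241. In both the siYAP triplicate stood clear below siCTRL and the YAP5SA triplicate clear above the vector, and the vector itself lay well under siCTRL. In A431 cells 2 of 12 passed with siYAP, against 5.60% of all genes tested, and both were higher: NT5E, the ectonucleotidase CD73 (1.17, SE 0.22, edgeR FDR = 0.0103), and LATS2, a kinase that inhibits YAP (0.69, SE 0.18, edgeR FDR = 0.0430). DESeq2 called these and also IGFBP3, a secreted binding protein of insulin-like growth factors, which was lower (-0.81, SE 0.26, edgeR FDR = 0.0900). TGFB2 was the only other of the 12 with an unadjusted p under 0.05 there, and it was lower too (-0.54, SE 0.20, edgeR FDR = 0.133). In that comparison 3264 of the 14673 genes tested had such a p, and DESeq2 called 1397 of all genes. With YAP5SA 0 of 12 passed in A431 cells, with 1, NT5E, at an unadjusted p under 0.05 and 0 in DESeq2.

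**Figure D4:**
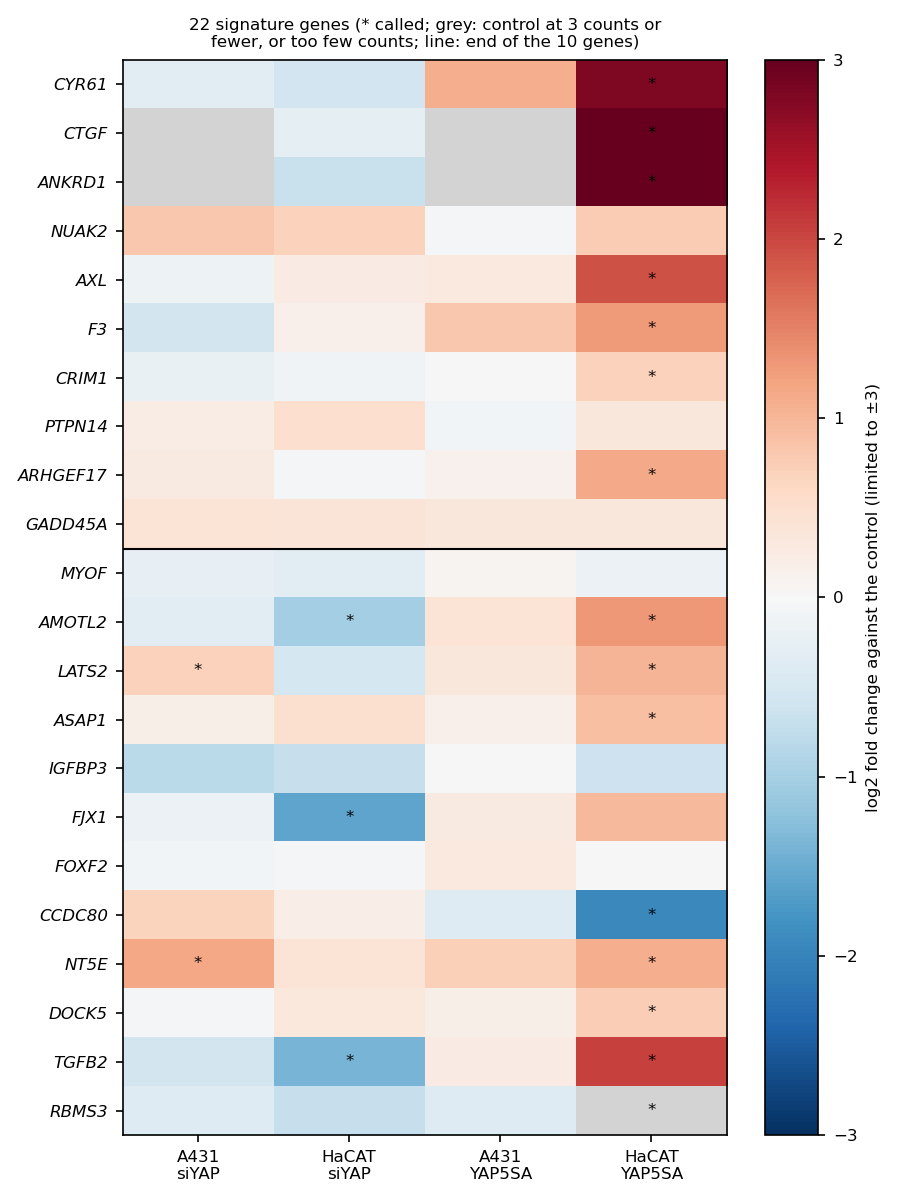
Log2 fold change (colour, limited to 3 in either direction) of the 22 signature genes against the control of each arm and line, with the 10 genes above the line, asterisks where the test was passed and grey where the control had 3 counts or fewer or counts were too few. Asterisks are absent from the siYAP columns above the line, and the HaCAT YAP5SA column holds 15 in all.

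Of 16 relatives and partners of the 10 genes 13 had enough counts to be tested, WISP1, WISP2 and GADD45G being too low. In HaCAT cells 3 of 13 passed with siYAP, 1 higher and 2 lower, against 5.67% of all genes tested. With YAP5SA 4 of 13 passed there, all higher, against 13.6%, 6.99% higher. In A431 cells edgeR called 0 of 13 with siYAP (4 at an unadjusted p under 0.05, 1 in DESeq2, PTPN21) and 0 of 13 with YAP5SA (1 at an unadjusted p under 0.05, 0 in DESeq2). Of the 14673 genes tested, 3264 had an unadjusted p under 0.05 with siYAP and 828 with YAP5SA in A431 cells. DESeq2 called 1397 and 3 of all genes there. Of the other CCN genes NOV rose in HaCAT cells with siYAP (log2 fold change 3.85, SE 0.76, edgeR FDR = 0.0105), from 5 counts in siCTRL to 66, 122 and 110. NOV lay at 23.2 CPM in the HaCAT vector, above the 2.56, 5.93 and 3.64 of siYAP. ANKRD2, a paralogue of ANKRD1, rose with YAP5SA in HaCAT cells (2.60, SE 0.64, edgeR FDR = 0.0214), from 1.21 to 8.51, 4.59 and 8.93 CPM. NUAK1, unlike NUAK2, was called in that comparison (1.22, SE 0.34, edgeR FDR = 0.0337), as was GAS6, the ligand of AXL (0.85, SE 0.16, edgeR FDR = 0.00856). The AXL relatives TYRO3 and MERTK were not called against a control in either line.

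TFPI2, a relative of the inhibitor of tissue factor, was called in opposite directions with loss and gain in HaCAT cells. It lay at 21.1 CPM in siCTRL, 4.53, 2.43 and 4.26 in siYAP, 16.2 in the empty vector and 59.6, 149 and 72.3 in YAP5SA. It fell with loss (log2 fold change -2.48, SE 0.44, edgeR FDR = 0.00830) and rose with gain (2.53, SE 0.52, edgeR FDR = 0.0124), its controls being close together. In A431 cells TFPI2 had at most 2 counts in any library. PTPN21, the paralogue of PTPN14, fell with siYAP in HaCAT cells (-0.63, SE 0.16, edgeR FDR = 0.0389). Of the transcription factors that carry YAP, TEAD4 fell with siYAP (-0.82, SE 0.22, edgeR FDR = 0.0449) and rose with YAP5SA (0.97, SE 0.22, edgeR FDR = 0.0163) in HaCAT cells, and TEAD1 rose with YAP5SA there (0.92, SE 0.18, edgeR FDR = 0.00908). WWTR1, which encodes TAZ, was not called by edgeR with siYAP in either line (-0.16 in A431 cells, and 0.52, SE 0.16, edgeR FDR = 0.0809 in HaCAT cells), while DESeq2 called it higher in HaCAT cells.

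YAP5SA libraries of a line differed in YAP1 and in the 10 genes. In A431 cells replicate 1 had the lowest YAP1 level and was the lowest of its triplicate for 7 of 10 genes, and replicate 2 had the highest and was the highest for 7. HaCAT replicate 2 had the highest YAP1 level and was the highest for 7 of 10, and replicate 1 the lowest and was the lowest for 6. CYR61 ran against this in HaCAT cells, highest in replicate 1 (202 CPM) and lowest in replicate 2 (102). These replicates also stood apart over all genes, by a chi-square per gene that rises with differences beyond counting noise. It was 84.8 and 78.3 for A431 replicate 1 against replicates 2 and 3, and 7.2 between those. For HaCAT replicate 2 it was 157.8 and 117.8 against replicates 1 and 3, and 77.4 between those. The share of all genes lowest or highest in each replicate is not given. With 3 libraries per line these orders are given as a description, and a relation to YAP1 was not tested.

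For likeness to CYR61, 12239 genes were ranked by the root mean square difference between their 4 log2 fold changes against the controls and its own. The nearest were FOSL1 (0.31), an AP-1 subunit, THBS1 (0.38), a secreted matricellular protein, and CDIP1 (0.42). CDIP1 had a mean of only 0.884 CPM over the HaCAT libraries. FOSL1 had fold changes of -0.26 and 0.84 in A431 and 0.00 and 2.81 in HaCAT cells for siYAP and YAP5SA. CTGF and ANKRD1 were nearest to each other (0.86). After them came ZNF625 and FLG (1.60 at most) for CTGF, and CYR61 (1.82) and GJB6 (1.84) for ANKRD1, and with few A431 counts of CTGF and ANKRD1 these orders rest mainly on fitted values near the floor. GJB6 had a mean of only 0.0544 CPM over the HaCAT libraries.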

How the data were processed

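RNA-seq of 16 libraries was analysed as 8 groups of 2 lines, with groups and replicate numbers taken from the sample titles. The authors trimmed paired reads and assigned them with bowtie2 and RSEM to RefSeq gene models, and deposited estimated counts per gene, neither scaled nor filtered. RSEM 1.2.11 and the build hg19 are named in the submitters' processing notes. Every library column was used. Of 26229 listed genes, 4970 had no count, 28 symbols had been turned into dates and 4 rows shared a symbol, and none of the latter is named here.

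Estimated counts were rounded, and a mean of more than 10 per library was required, which left 14673 genes, of which 12240 had a logCPM above 1. TMM factors were 0.914 to 1.074. The quasi-likelihood test of edgeR 4.0.16 (limma 3.58.1, R 4.3.3) was applied to 1 model of 8 groups with 8 residual degrees of freedom, a biological coefficient of variation of 0.174 and a prior count of 0.125. The Benjamini-Hochberg FDR was taken over all genes of a comparison, and calls required both FDR < 0.05 and logCPM > 1, thresholds that the study's methods also use. Intervals are 95%, and counting intervals of ratios are exact and cover counting error only. Exact permutation tests of single genes were not used, since they cannot go below 0.25 for 3 libraries against 1 or 0.1 for 3 against 3. The steps were tested on simulated data. Replicates of a group differed by more than sampling noise, and all were kept. Same-numbered siYAP and YAP5SA libraries had correlations of their deviations of -0.03 to 0.12, so replicate numbers were not taken to pair libraries. Summaries used Python 3.11.15, matplotlib 3.10.9, pandas 2.3.3, numpy 2.4.6 and scipy 1.17.1.

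The 10 genes, the lists of signature genes, relatives and cell type markers, and the comparisons were chosen with earlier results of these data known. Signature genes were named where called (at most 4 per comparison), relatives where called, and the 3 nearest genes in pattern for CYR61, CTGF and ANKRD1. Alternatives were DESeq2 1.42.0, RLE size factors, other count filters, FDR alone, the likelihood ratio test, each line alone, both controls together, each arm against its own control, a replicate block and leaving out each treated library. Promoter sequences come from RefSeq on GRCh38.p14, another build than that of the counts, and no position was carried between them.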

Additional observations from a re-analysis of the deposited data

Results flagged for a closer look

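For 11 results among the 10 genes, the other signature genes, the relatives and partners and the TAZ and TEAD genes, all 3 treated libraries of one line lay on one side of their control and all 3 of the other line on the opposite side. None of the 11 differences passed edgeR's interaction test. The share of all genes with such opposite sides is not given, and each side rests on a single control library. The 11 are therefore listed as a description. Each is given as the log2 fold change in HaCAT cells minus that in A431 cells.

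With siYAP, AXL lay above siCTRL in HaCAT and below it in A431 cells, a difference of 0.40 (SE 0.31, edgeR FDR = 0.678). F3 did the same, with a difference of 0.71 (SE 0.32, edgeR FDR = 0.411), as did WWTR1 (0.67, SE 0.22, edgeR FDR = 0.257). LATS2 lay below siCTRL in HaCAT and above it in A431 cells (-1.21, SE 0.25, edgeR FDR = 0.0795). TYRO3 (-0.67, edgeR FDR = 0.315), GADD45B (-0.83, edgeR FDR = 0.404) and TEAD3 (-0.30, edgeR FDR = 0.769) lay on the same sides as LATS2.

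With YAP5SA, GAS6 lay above the empty vector in HaCAT and below it in A431 cells (1.24, SE 0.22, edgeR FDR = 0.0523), as did ANKRD23 (2.14, SE 0.74, edgeR FDR = 0.127). RBMS3 lay on the same sides (3.83, SE 0.79, edgeR FDR = 0.0549), and its HaCAT vector library held 3 counts against 123 over the YAP5SA triplicate, a ratio of 11.4 with a 95% counting interval of 3.81 to 56.0. TFPI2 also did (7.00, SE 3.20, edgeR FDR = 0.226), but with 2 counts in the A431 vector and 0 in each A431 YAP5SA library its A431 direction was not detectable at this depth.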

How the results depend on the processing

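Of 732 alternative values for 60 results, 662 kept direction and side of the threshold, 25 lost a call, 26 gained it and 19 changed sign. The causes of these changes were not tested. The limits are the single control libraries, and for CTGF and ANKRD1 in A431 cells the counts. With siYAP the number of the 10 genes called was 1 in A431 cells with DESeq2 and 5 in HaCAT cells with both controls together. With YAP5SA in HaCAT cells it was 5 to 8 under all alternatives, 5 of 8 tested with more than 10 counts in every library, which left out CTGF and ANKRD1. In A431 cells it was 0 to 1 when a treated library was left out. For YAP5SA against siYAP it was 0 in A431 and 5 in HaCAT cells with each arm against its own control, 5 of 8 tested in HaCAT cells with more than 10 counts in every library, and 2 to 3 in A431 and 6 to 9 in HaCAT cells when a treated library was left out. For the difference of the YAP5SA effect between lines it was 3 with DESeq2, 2 with the likelihood ratio test, 1 with RLE size factors, with no count filter or with more than 10 counts in every library, and 0 to 2 when a treated library was left out. DESeq2 called 928 of all genes for that difference and edgeR's main test 13. Beyond DESeq2 and each arm against its own control, the share of all genes called under each alternative is not given. Counts of the 10 genes under those alternatives are therefore a description.

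With both controls together 8 values changed sign. With siYAP these log2 fold changes were 0.18 for CYR61 in A431 cells, and -1.15 for F3, 0.13 for CRIM1, 0.53 for ARHGEF17 and -1.41 for GADD45A (edgeR FDR = 0.0435) in HaCAT cells. With YAP5SA they were 0.28 for NUAK2 and -0.01 for GADD45A in A431 cells and -0.70 for PTPN14 in HaCAT cells. With each arm against its own control, YAP5SA against siYAP gave 0.23 for CRIM1 in A431 cells and 0.07 for NUAK2, 1.17 for ARHGEF17 and -0.05 for GADD45A in HaCAT cells. Of the rest, CRIM1 with YAP5SA in A431 cells was 0.03 without a count filter and 0.00 with the line fitted alone. When a treated library was left out, it ranged from -0.11 to 0.12, NUAK2 in that comparison from -0.18 to 0.03, and ARHGEF17 with siYAP in HaCAT cells from -0.18 to 0.04. In YAP5SA against siYAP in A431 cells, CYR61 then ranged from -0.03 to 0.33 and CRIM1 from -0.22 to 0.02.

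The replicate numbers did not meet the criterion for pairing, since 1 of 6 same-number correlations was above 0.1, and libraries did not all correlate best with their own number. With a replicate block, YAP5SA against siYAP gave 3 calls of 10 in A431 cells and 7 in HaCAT cells, where AXL (0.35, edgeR FDR = 0.0635) and CRIM1 (0.28, edgeR FDR = 0.0508) were no longer called. The share of all genes called with the block is not given.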
